A study of Mus musculus with 20 samples.

Results

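H3K27ac that was called only after deletion of Ep300 was followed through the peak lists of lineage-negative (Lin-) mouse bone marrow cells. The 4 H3K27ac lists of the study, 1 for each genotype, were merged wherever peaks overlapped by at least 1 bp. A merged region was kept when it held a peak in the p300 Knockout list and in the p300 Tet2 Knockout list and none in the WT or the Tet2 Knockout list. This gave 258 of 35252 merged regions (0.732%; interval, 0.646% to 0.826%). Each interval given here is an exact (Clopper-Pearson) 95% interval and reflects counting error alone. The regions were chosen by the H3K27ac calls of these same 4 libraries, so their number and their H3K27ac strength and width are a description, without a test.

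All mice carried floxed Ep300 (Ep300 fl/fl) on a C57BL/6 background and received poly(I:C), which induces interferon, at a few weeks of age. WT mice had no Cre. p300 Knockout mice (Ep300Δ/Δ) also carried Mx1-Cre, whose interferon-inducible promoter drives excision in blood-forming cells but also in other cells that respond to interferon. Tet2 Knockout mice were Ep300 fl/fl and Tet2-/- without Cre, and p300 Tet2 Knockout mice (Ep300Δ/ΔTet2-/-) were Mx1-Cre, Ep300 fl/fl, and Tet2-/-. Both genotypes whose lists define the 258 regions thus carry Mx1-Cre and both others lack it, so effects of the transgene and of Ep300 deletion cannot be told apart here. The labels do not give the age at collection, the sex, or how many animals were pooled for each chromatin sample. Each library started from Lin- cells with a labelled purity above 80%, and there was 1 library for each genotype and mark. The H3K27ac lists held 18327 peaks in p300 Tet2 Knockout, 22727 in p300 Knockout, 24539 in Tet2 Knockout, and 29659 in WT cells, and the lists do not give the number of reads behind them. No spread between mice could therefore be measured, and no P value was computed between genotypes.

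p300, encoded by Ep300, is an acetyltransferase that modifies lysine 27 and other residues of histone H3, and its paralog CBP, encoded by Crebbp, acetylates the same sites. H3K27ac marks active promoters and enhancers. H3K4me1 marks enhancers, also those that are not active, and H3K4me3 marks promoters. Tet2 oxidizes methylated cytosine in DNA. Regions with acetylation called only in cells without p300 are therefore those where the mark was called in the absence of 1 of its main writers.

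Sequences are shown for 5 of the regions that lie in or near genes of stem and progenitor cells: the 3 regions inside Meis1, which encodes a homeodomain partner of HOX proteins, the region at an internal start of Abcg2, which encodes a drug and dye exporter of stem cells, and the region near Fli1, which encodes an ETS factor. Each is a window of 201 bp around the summit with the highest −log10 q, read 5′ to 3′ on the plus strand of GRCm38 from the RefSeq genome, and none of the 5 windows overlaps an annotated exon. Capitals mark matches to the motifs searched, on either strand.

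Meis1 region nearest to the start, chr11:19008222-19008422: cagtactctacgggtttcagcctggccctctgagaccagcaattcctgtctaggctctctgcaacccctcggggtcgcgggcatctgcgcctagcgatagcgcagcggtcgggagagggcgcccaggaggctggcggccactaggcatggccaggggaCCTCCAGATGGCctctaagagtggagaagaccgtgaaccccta
Meis1 middle region, chr11:18970359-18970559: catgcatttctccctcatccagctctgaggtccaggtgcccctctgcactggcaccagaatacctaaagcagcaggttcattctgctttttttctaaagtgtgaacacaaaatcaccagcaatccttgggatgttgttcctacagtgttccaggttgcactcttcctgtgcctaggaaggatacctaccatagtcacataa
Meis1 region farthest from the start, chr11:18957628-18957828: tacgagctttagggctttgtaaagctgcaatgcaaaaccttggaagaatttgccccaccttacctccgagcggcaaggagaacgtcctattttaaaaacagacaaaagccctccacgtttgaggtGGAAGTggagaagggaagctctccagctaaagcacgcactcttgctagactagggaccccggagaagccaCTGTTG
Abcg2 region, chr6:58596233-58596433: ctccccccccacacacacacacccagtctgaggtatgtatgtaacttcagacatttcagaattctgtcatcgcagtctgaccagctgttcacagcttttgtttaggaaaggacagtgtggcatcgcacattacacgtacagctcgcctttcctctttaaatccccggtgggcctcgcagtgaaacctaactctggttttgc
Fli1 region, chr9:32562492-32562692: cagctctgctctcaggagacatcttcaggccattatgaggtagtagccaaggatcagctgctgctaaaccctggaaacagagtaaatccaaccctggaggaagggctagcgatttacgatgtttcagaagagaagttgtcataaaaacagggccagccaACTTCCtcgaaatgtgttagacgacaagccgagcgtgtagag

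Among these 5 windows, the one farthest from the start of Meis1 held an ETS and a Myb consensus, the one nearest to it held a CTCF consensus, and the Fli1 window held an ETS consensus. The middle Meis1 window and the Abcg2 window held none of the motifs. Their GC content ran from 47.3% in the middle Meis1 window to 64.2% in the Meis1 window nearest to the start.

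Over all 258 regions, the motifs were about as frequent as over all merged regions in windows of the same length. The ETS consensus (GGAAGT) was present in 17.1% of the regions (12.7% to 22.2%) against 14.0% of all merged regions, and the Myb consensus (CAACNG, or the same with T as its first base) in 38.4% (32.4% to 44.6%) against 37.7%. The consensus for C/EBP (TTGCNNAA), the family of granulocytic factors, was found in 8.53% (5.42% to 12.6%) against 5.86%. The RUNX consensus (TGTGGTT), bound by a master factor of blood stem cells, was found in 5.43% of the regions against 3.78% of all merged regions. GATA, the consensus of erythroid and mast cell factors (AGATAA), was found in 4.65% against 5.69%. For AP-1 (TGANTCA), the shares were 5.43% and 4.67%. The interferon response element, read as GAAA present again after any pair of bases, had 2.33% and 1.94%, and the CTCF consensus, as in the capitals of the Meis1 window nearest to the start, had 6.59% and 4.83%. Every interval of the 258 regions contained the share of all merged regions. Median GC content of the windows was 53.2%, against 53.7% for all merged regions, and 12 of the 258 windows (4.65%) were mostly repeat sequence, against 5.82%.

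The pattern was rare. Of the 15 possible patterns of lists, acetylation in both p300-deleted lists alone was the least frequent, whereas the reverse pattern, a peak in WT and Tet2 Knockout alone, numbered 2307, and 12528 regions had a peak in all 4 lists. The other patterns of 2 lists numbered 343 to 1510. Most regions that were acetylated in 1 p300-deleted list and not in its control were not shared by both backgrounds: 2319 merged regions (6.58%) had a peak in p300 Knockout and none in WT, and 2431 (6.9%) had one in p300 Tet2 Knockout and none in Tet2 Knockout. The order rested on the length of the lists. When each list was reduced to its 18327 strongest peaks, 466 regions had the pattern and 2 other patterns of 2 lists were rarer, at 332 and 373.

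**Figure D1:**
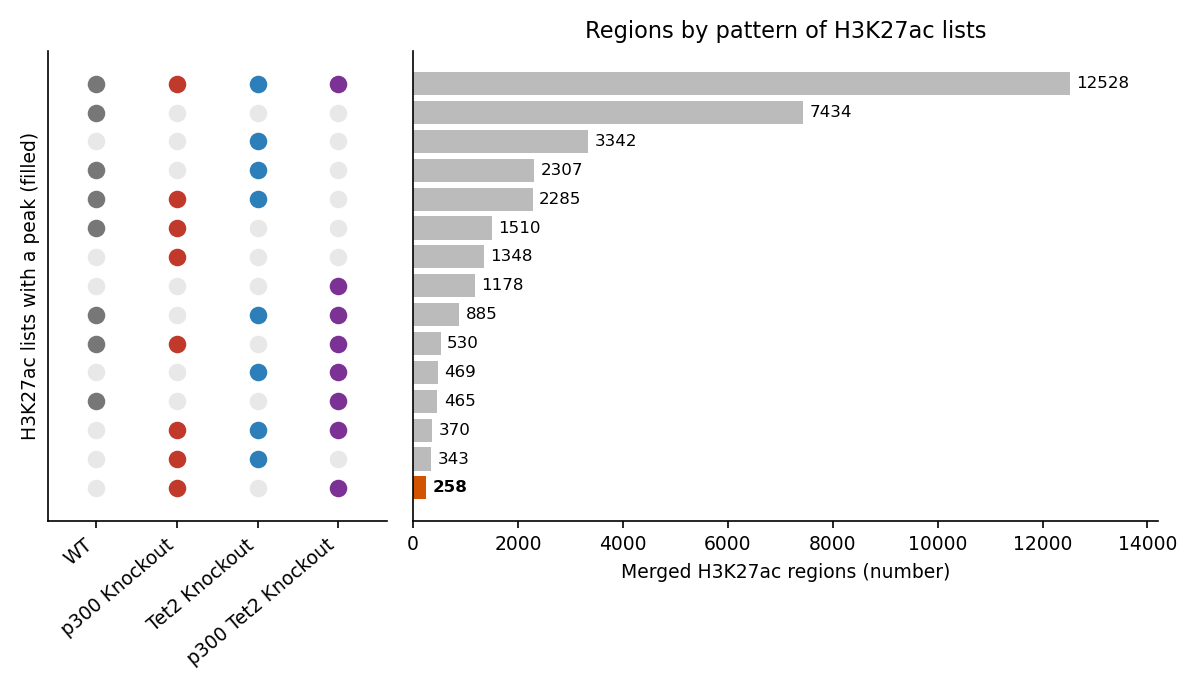
Number of merged H3K27ac regions (x axis) for each of the 15 patterns of lists. Filled circles on the left show which of the 4 lists hold a peak. The 258 regions called only in p300 Knockout and p300 Tet2 Knockout cells (orange) are the smallest group, and the 12528 regions called in all 4 lists are the largest.

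The 258 regions were weak peaks of their lists. Fold enrichment over the H3 library ranged from 1.9 to 8.48 in the p300 Knockout list, with a median of 4.29 against 5.93 for that list, and from 1.9 to 11.6 in the p300 Tet2 Knockout list, with a median of 4.70 against 6.94. In the order of fold within each list, where the weakest peak has percentile 0, the median region stood at percentile 27 and 22.7. In the p300 Knockout list 227 of the 258 were below the median fold of the list, and in the p300 Tet2 Knockout list 229 were. The summits of the 2 lists lay within 100 bp of each other in 208 of the 258 regions, where the rule already requires the peaks to lie together. The fold was higher in the p300 Tet2 Knockout list in 161 regions, although folds of separate libraries are not amounts on 1 scale. No signal track was analysed here, so a list without a peak shows the lack of a call and not how much acetylation was present.

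At the edge of the rule, the regions with the smallest fold were at Irf8 (fold 1.9 in p300 Knockout, with a −log10 q of 0) and at Dusp12 (fold 1.9 in p300 Tet2 Knockout). In all, 45 regions had a −log10 q under 1.30 in either list, the value of the stated q threshold of 0.05, 44 of them in the p300 Knockout list. Just outside the rule were regions with peaks in both p300-deleted lists and a weak WT or Tet2 Knockout peak. Of 13428 regions with both p300-deleted peaks and at least 1 control peak, 58 had control peaks with a −log10 q under 3 only, down to 0.632.

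The regions were narrow, with a median width of 409 bp (quartiles, 334.5 to 544.2 bp; range, 203 to 1286 bp) and a sum of 118.3 kb. Regions called only in WT and Tet2 Knockout cells had a median of 508 bp, and regions in all 4 lists one of 925 bp. Peaks in 1 list alone were narrower, with medians of 224 bp for p300 Knockout and 311 bp for p300 Tet2 Knockout, where no second peak adds to the merged width.

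A majority of the regions lay at promoters, defined by a transcript start within 3000 bp in either direction: 158 of 258 (61.2%; 55% to 67.2%). The share over all merged regions was 59.5%, and that over regions in all 4 lists was 83.6%. Regions called only in WT and Tet2 Knockout cells were at promoters less frequently, in 997 of 2307 (43.2%; 41.2% to 45.3%), and the intervals did not overlap. A further 53 regions were in introns (20.5%), 9 in exons (3.49%), and 38 between genes (14.7%). The median distance to the nearest start was 1.10 kb, against 1.16 kb for all merged regions and 4.38 kb for regions called only in WT and Tet2 Knockout cells, and 45 regions contained a start. Outside promoters, 52 of 100 regions were within 10 kb of a start and 3 were over 50 kb from one.

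The regions were spread over 20 chromosomes. Chromosome 11 held 28, chromosome 10 held 24 (1.23% of its merged regions), and chromosome 12 held 4 (0.289%). None was on chromosome Y, where the p300 Knockout H3K27ac list has no peak and each of the other 3 has 4.

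Acetylation in the control genotypes was often close by. The nearest H3K27ac peak of WT or Tet2 Knockout cells was within 500 bp of 90 regions, between 500 bp and 5 kb of 53, and over 5 kb from 115, with a median gap of 2.21 kb. The smallest gap was 1 bp, and the largest was 919 kb, at Cyp7b1, which encodes an oxysterol hydroxylase. The 258 regions thus comprise sites beside acetylation that the controls also had and sites with none nearby.

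**Figure D2:**
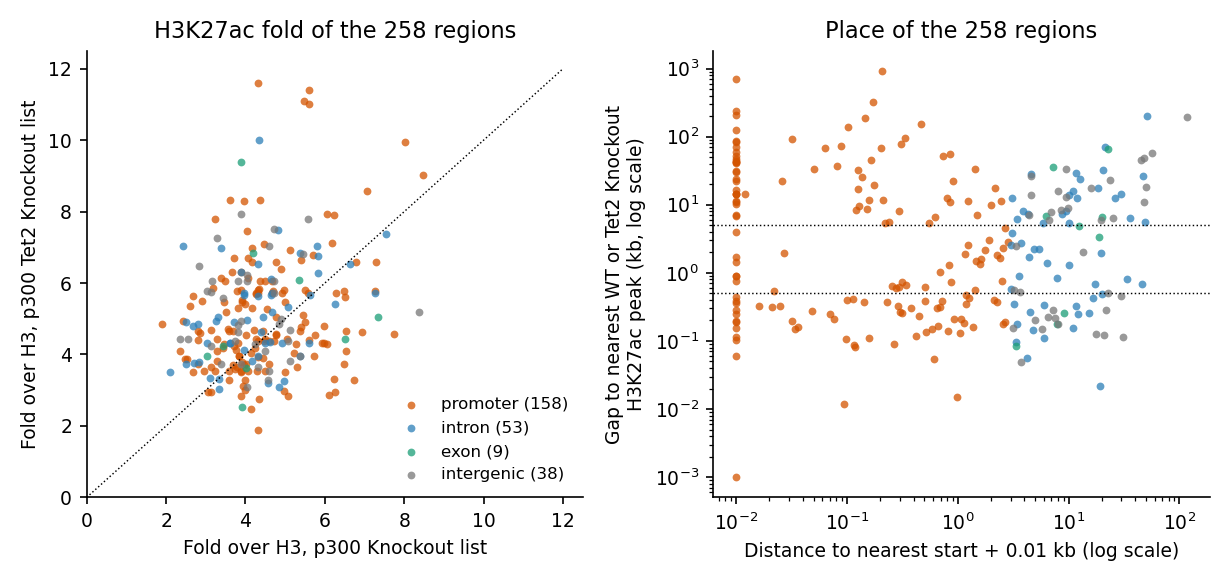
Left, H3K27ac fold enrichment over H3 of each of the 258 regions in the p300 Knockout list (x axis) and in the p300 Tet2 Knockout list (y axis), with the line of equal fold dotted. Right, distance to the nearest transcript start (x axis) and gap to the nearest H3K27ac peak of WT or Tet2 Knockout cells (y axis), both in kb on log scales, with dotted lines at 500 bp and 5 kb. Points are colored by place, with 158 regions at promoters, and 115 regions lie above the 5 kb line.

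Of the 158 regions at promoters, 85 were nearest to a start that had another H3K27ac peak of WT or Tet2 Knockout cells within 3000 bp, and 73 were nearest to a start that had none in either control list. Of these 73, 62 had an H3K4me3 peak in WT or Tet2 Knockout cells, and 58 had one in all 4 genotypes. Such peaks are common at promoters, since 82.9% of all merged promoter regions had H3K4me3 in WT or Tet2 Knockout cells and 76.7% had it in all 4 genotypes. The genes include Abcg2, Cd7, which encodes a surface protein of T and NK cells, Trim30d, a member of the tripartite motif family (folds of 8.03 in p300 Knockout and 9.95 in p300 Tet2 Knockout), and D3Ertd254e. Another 4 were named after their values were seen and stand for no gene group. Their folds are given for p300 Knockout and then p300 Tet2 Knockout cells. They were Cd226, an activating receptor of NK and T cells (4.21 and 4.69), and Rasgrp1, an activator of Ras in lymphocytes (3.88 and 2.85). The others were Abca1, a cholesterol exporter (4.35 and 5.83), and Tfeb, a regulator of lysosomal genes (2.8 and 4.67). Of a fixed list of T and NK genes, 12 were nearest to any merged region and 0 to a region with the pattern.

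Regions were ordered by the smaller of their 2 folds, and the first was in Abcg2 (chromosome 6, 58584523 to 58695676, plus strand). Its region, at 58596165 to 58596508 and 163 bp from an annotated start, had a fold of 8.48 in p300 Knockout cells and 9.02 in p300 Tet2 Knockout cells. WT and Tet2 Knockout cells had no H3K27ac peak anywhere in the gene, and the nearest one was 320 kb away. H3K4me3 was called at the region in all 4 genotypes and H3K4me1 in none. The promoter of Cd7 showed the same calls of H3K27ac, with folds of 7.05 and 8.58 and no control peak within 42.7 kb, and it had both other marks in all 4 genotypes.

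The others among the 10 strongest regions varied in their setting. A region that contained a start of Hoxa7, a homeobox gene of the HoxA cluster (chromosome 6, 52217080 to 52217479), had folds of 6.79 and 6.60 but lay 156 bp from a control peak. The region near a start of Prkcd, which encodes protein kinase C delta, had folds of 7.28 and 6.60, H3K4me1 in all 4 genotypes, and H3K4me3 in none. Lncpint, a long noncoding RNA, held 1 of the strongest regions in an intron (7.53 and 7.38), where H3K4me3 was called in WT and p300 Knockout cells only, and a second region at its start (6.50 and 5.61). The strongest regions also included 1 in an intron of Meis1 (6.64 and 6.52), whose nearest start is that of 2610001A08Rik. The remaining 3 were at Tmem243 (6.22 and 7.89), Zdhhc17, which encodes a palmitoyltransferase (6.19 and 7.11), and D3Ertd254e (6.06 and 7.93). These 3 had H3K4me3 in all 4 genotypes. The region at D3Ertd254e had the same calls as that of Abcg2, with no H3K4me1 in any genotype. Its nearest control peak was 84225 bp away.

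Meis1 (chromosome 11, 18879817 to 19018985, minus strand, 139.2 kb) overlapped 3 of the regions, of which the one farthest from its start was among the 10 strongest. Since it is not the gene with the nearest start, Meis1 itself was chosen for description after its values were seen. The edges of the 3 regions nearest to the start of the gene were 10.5, 48.4, and 60.9 kb from it. The region at 60.9 kb had folds of 6.64 in p300 Knockout and 6.52 in p300 Tet2 Knockout cells, and its nearest control peak was 5.54 kb away. The region at 48.4 kb had folds of 5.82 and 6.75, with a control peak 6.36 kb away. The region at 10.5 kb was weaker, at 3.89 and 3.55, and lay 300 bp from a Tet2 Knockout peak. H3K4me1 was called at all 3 in all 4 genotypes, and H3K4me3 at the regions at 10.5 and 60.9 kb in all 4 genotypes and at the region at 48.4 kb in none. Over the whole gene, the lists held 2 H3K27ac peaks in WT, 6 in Tet2 Knockout, 11 in p300 Knockout, and 10 in p300 Tet2 Knockout cells. H3K4me1 peaks in the gene numbered 21, 30, 34, and 43 in the same order of genotypes, whereas H3K4me3 peaks numbered 6 to 7.

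**Figure D3:**
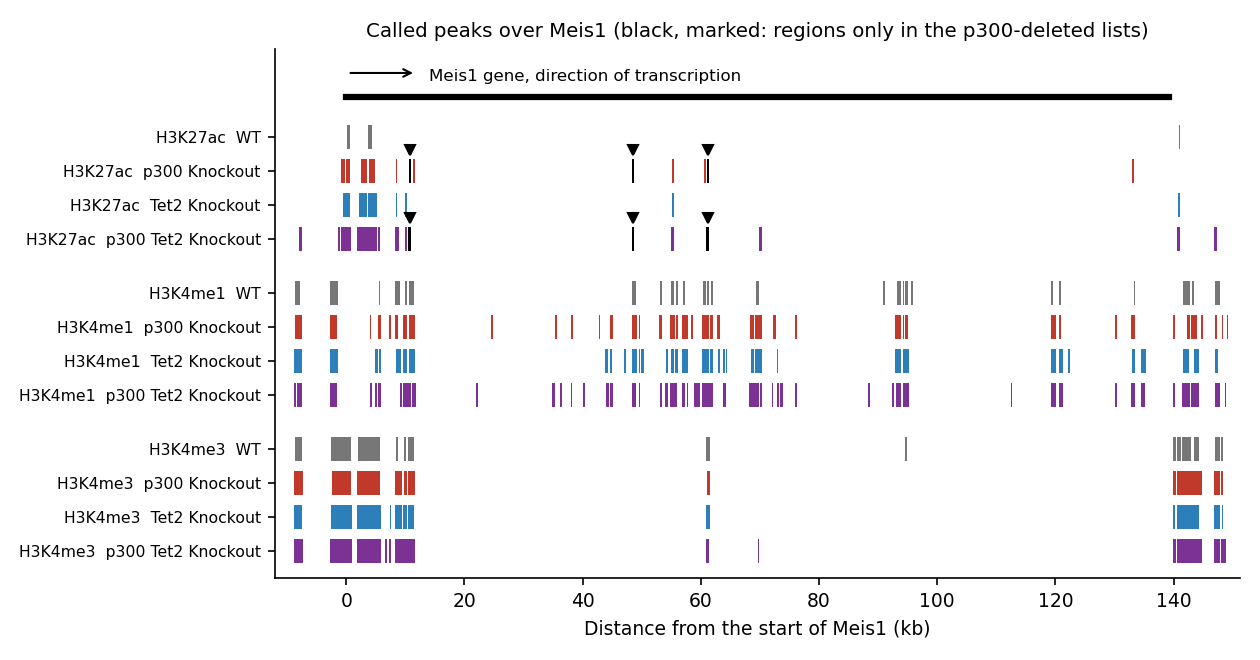
Called peaks over Meis1 in the 12 lists, by distance from the start of the gene in the direction of transcription (x axis, kb). Each row is 1 mark in 1 genotype, and bars are drawn from the start to the end of each peak, with a minimum drawn width of 0.25 kb. The 3 regions called only in the p300-deleted lists (black, marked by triangles) start at 10.5, 48.4, and 60.9 kb, over H3K4me1 peaks of all 4 genotypes.

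Among the other stem and progenitor genes, Cd34, a surface marker of progenitors, had 1 region, at its start (fold 5.97 in p300 Knockout and 4.79 in p300 Tet2 Knockout), 325 bp from a control peak. The region 19.5 kb from the start of Fli1 had folds of 3.02 and 5.77, with a −log10 q of 0.357 in the p300 Knockout list, which is short of the stated threshold.

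The 258 regions were nearest to starts of 249 genes, and 181 regions were nearest to a protein-coding gene. Gene groups were read against the share of all genes nearest to any merged region that were nearest to 1 of the 258, which was 249 of 15605 (1.60%). Of 22 stem and progenitor genes, 18 were nearest to any merged region and 3 of them to 1 of the 258, Fli1 and Cd34 among them. With genes that a region overlapped counted too, the group had 4 of 19, with Meis1, against 311 of 17727 genes (1.75%). Genes with many merged regions have more chances to hold one: Fli1 had 26 merged regions, Meis1 15, and Cd34 5, against a median of 2 per gene. The Hox group had 1 of 5 (Hoxa7), the granulocyte and monocyte group 1 of 24 (Irf8, a factor of monocytes and dendritic cells), the B-lymphoid group 1 of 9 (Bach2, a repressor in B cells), and the group of acetylation enzymes and readers 1 of 27 (Ncoa3, a coactivator that binds p300 and CBP). No gene of the erythroid and megakaryocyte group (0 of 20), the interferon-stimulated group (0 of 18), the cell cycle group (0 of 25), the T and NK group (0 of 12), the group for mast cells, basophils, and eosinophils (0 of 9), or the stromal and endothelial group (0 of 5) was nearest to any of the regions. Counts this small are a description of the lists and call no group apart.

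Few genes held more than 1 region. Gm23058 was nearest to 3, which all lay in an intron of Lims1, encoding an adaptor of focal adhesions (chromosome 10, 58323466 to 58424691), within 4.90 kb of the Gm23058 start and with folds from 3.38 to 6.99. Of these 3, the first in position had a −log10 q of 0.760 in the p300 Knockout list and a window that was 84.6% repeat sequence. Bach2, with 2 regions and 15 merged regions, had folds of 3.30 to 5.05. None of the regions was nearest to or inside Ep300, Tet2, Crebbp, Mx1, Myb, or any Hoxb gene. These genes had few merged regions: Myb 4, Tet2 3, Ep300 2, Crebbp 1, Mx1 1, and Hoxb4 1, with none for the other Hoxb genes. Since 0.732% of all merged regions had the pattern, its absence here says little about these genes.

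H3K4me1 was called at most of the regions without p300 deletion, about as frequently as at merged regions in general. It was called at 183 of the 258 regions in WT (70.9%; 65.0% to 76.4%), 178 in Tet2 Knockout (69.0%; 63.0% to 74.6%), 187 in p300 Knockout (72.5%; 66.6% to 77.8%), and 206 in p300 Tet2 Knockout cells (79.8%; 74.4% to 84.6%). For all merged regions the 4 shares were 70.7%, 68.5%, 69.3%, and 69.9%. In WT or Tet2 Knockout cells together, 207 regions had the mark (80.2%), against 76.5% of all merged regions. It was called in all 4 genotypes at 144 regions (55.8%, against 55.2%) and in none at 33 (12.8%, against 18.0%).

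H3K4me3 was called at 168 regions in WT (65.1%; 59.0% to 70.9%), 175 in Tet2 Knockout (67.8%; 61.8% to 73.5%), 173 in p300 Knockout (67.1%; 61.0% to 72.8%), and 177 in p300 Tet2 Knockout cells (68.6%; 62.6% to 74.2%). At 157 regions (60.9%) it was called in all 4 genotypes, and 186 (72.1%) had it in any. For all merged regions the shares were 58.2% in WT, 58.6% in Tet2 Knockout, 54.8% in p300 Knockout, and 56.0% in p300 Tet2 Knockout cells, with 52.1% in all 4 genotypes and 62.3% in any. Of the regions called only in WT and Tet2 Knockout cells, 32.8% to 42.0% had H3K4me3. Of the 258 regions, 1 had neither mark in any genotype, between genes and 23.5 kb from the nearest start, that of Spef2.

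The 2 marks differed by place. At promoters, 125 to 130 of 158 regions had H3K4me3 in the 4 genotypes (79.1% to 82.3%), close to all merged promoter regions (78.7% to 81.2%). Outside promoters, 43 to 47 of 100 regions had it, against 19.7% to 25.4% of all merged regions outside promoters and 14.0% to 24.4% of those called only in WT and Tet2 Knockout cells. In each genotype the interval of the 100 regions was above the share of both other groups. H3K4me1 outside promoters was called in 75% of the regions in WT (65.3% to 83.1%) and in Tet2 Knockout cells, in 82.0% in p300 Knockout, and in 86.0% in p300 Tet2 Knockout cells. All merged regions outside promoters had it in 82.1% in WT, 81.9% in Tet2 Knockout, 77.8% in p300 Knockout, and 79.7% in p300 Tet2 Knockout cells. Regions called only in WT and Tet2 Knockout cells had it in 93.2% in both controls, above the interval of the 100 regions. Of these 100 regions, 78 had H3K4me1 in both p300-deleted genotypes, and 77 of the 78 had it in WT or Tet2 Knockout cells too.

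**Figure D4:**
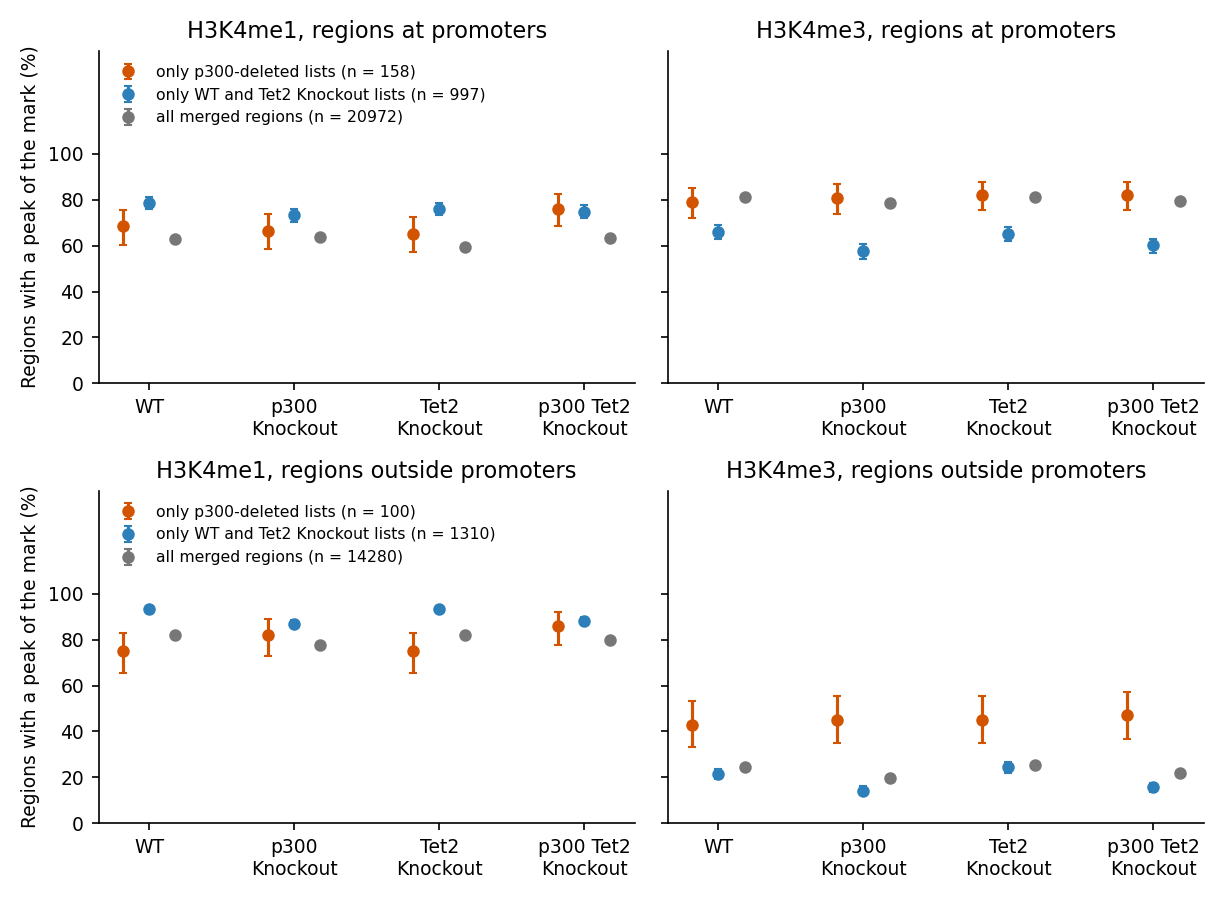
Share of regions with a peak of H3K4me1 (left) or H3K4me3 (right) in each genotype, at promoters (top) and outside them (bottom), with exact 95% intervals as bars, which are smaller than the points for the grey groups. Outside promoters, 43 to 47 of the 100 regions called only in the p300-deleted lists (orange) had H3K4me3, above regions called only in the WT and Tet2 Knockout lists (blue) and all merged regions (grey).

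Gains of the 2 other marks at the regions were few. Peaks of all marks were called against the H3 library of the genotype, which also entered the H3K27ac calls that chose the regions. The counts of gains and losses thus share part of their background with the choice. Between WT and p300 Knockout cells, H3K4me1 was gained at 20 regions (7.75%; 4.80% to 11.7%) against 6.86% of all merged regions, and lost at 16 (6.20%) against 8.18%. Between Tet2 Knockout and p300 Tet2 Knockout cells it was gained at 34 (13.2%; 9.30% to 17.9%) against 7.76%, and lost at 6 (2.33%; 0.858% to 4.99%) against 6.3%. On the Tet2-null background, both H3K4me1 intervals excluded the share of all merged regions, and in the other pair both contained it. More H3K4me1 in the p300-deleted genotype was not particular to the 258 regions. Regions in the p300 Knockout list alone had it in 78.9% in p300 Knockout against 68.4% in WT cells. Those in the p300 Tet2 Knockout list alone had it in 67.1% in p300 Tet2 Knockout against 57.2% in Tet2 Knockout cells. For H3K4me3 these shares were 41.8% against 40.2% and 43.0% against 40.9%. H3K4me3 was gained at 10 regions between WT and p300 Knockout cells (3.88%; 1.87% to 7.01%) against 1.21% of all merged regions, and at 6 between Tet2 Knockout and p300 Tet2 Knockout cells (2.33%; 0.858% to 4.99%) against 1.31%. The first of these intervals excluded the share of all merged regions and the second contained it. Neither mark was called in both controls and in neither p300-deleted genotype at any of the regions (0 of 258, with an interval up to 1.42%), against 1.56% of all merged regions for H3K4me1 and 1.42% for H3K4me3. H3K4me3 was lost at 5 regions (1.94%; 0.632% to 4.46%) against 4.56% of all merged regions in the first pair, which the interval excluded, and at 4 (1.55%; 0.424% to 3.92%) against 3.89% in the second, which it contained.

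Regions where another mark had the same pattern as H3K27ac were fewer still. H3K4me1 was called only in the p300-deleted genotypes at 3 of the 258 regions, against 1.56% of all merged regions, and H3K4me3 at 1, against 0.173%. The 3 were at promoters of Mansc1 and Sh3rf1 and near Ercc4, a DNA repair nuclease gene, and the 1 was in an intron near Ppp6r2, which encodes a phosphatase subunit. They were named because they were so few, after their values were seen.

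The strength of the other marks was read from ranks, as a description. The fold of every mark is a ratio to the H3 library of its genotype, which also entered the H3K27ac calls that chose the regions and was not analysed here, so these values share part of their background with the choice. Each H3K4me1 peak was ranked by its fold within its own list, and the percentiles were compared at regions with a peak in both genotypes of a pair. Of 167 regions with H3K4me1 in WT and p300 Knockout cells, 117 had the higher percentile in p300 Knockout (70.1%; 62.5% to 76.9%), against 48% of 22023 merged regions. The median percentile was 57.1 in WT and 74.8 in p300 Knockout cells. Of 172 regions with the mark in Tet2 Knockout and p300 Tet2 Knockout cells, 113 had the higher percentile in p300 Tet2 Knockout (65.7%; 58.1% to 72.8%), against 49.8% of 21919, with medians of 60.2 and 74.8. Over all merged regions, median percentiles were 77.3 in WT and 75 in p300 Knockout cells. The regions thus ranked below the merged regions for H3K4me1 in the control lists and level with them in the p300-deleted lists.

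The H3K4me3 percentile was higher in p300 Knockout than in WT cells at 107 of 163 regions (65.6%; 57.8% to 72.9%), against 45.3% of all merged regions, and higher in p300 Tet2 Knockout than in Tet2 Knockout cells at 104 of 171 (60.8%; 53.1% to 68.2%), against 46%. The changes in median percentile were small, from 59.9 to 64.7 and from 60.3 to 61.0. Outside promoters the H3K4me3 shares were 21 of 39 and 21 of 42, with intervals from 37.2% to 69.9% and from 34.2% to 65.8%. All merged regions outside promoters had 35.9% and 39.4%, so the first interval lay above its background and the second contained it. For regions in the p300 Knockout list alone, the H3K4me3 share was 62.1% (57.8% to 66.3%) in the pair of that list. For those in the p300 Tet2 Knockout list alone, it was 61.3% (56.6% to 65.7%). In the other pair, the shares were 53.8% and 52.1%. A higher H3K4me3 percentile was thus not particular to regions called in both p300-deleted lists.

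Lists of unequal length give unequal ranks, and the H3K4me1 lists held 107392 peaks in WT, 90738 in p300 Knockout, 98069 in Tet2 Knockout, and 93465 in p300 Tet2 Knockout cells. With the 4 lists of each mark cut to the length of the shortest, the share with the higher H3K4me1 percentile was 71.4% against 51.3% of all merged regions in the first pair, and 67.3% against 51.0% in the second. For H3K4me3, it was 70.6% against 49.2% and 63.4% against 47.6%. This ranking was added after the data were seen.

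The ranks were also read by distance from control acetylation. Over 5 kb from any WT or Tet2 Knockout H3K27ac peak, the H3K4me1 percentile was higher in p300 Knockout cells at 59 of 77 regions (76.6%; 65.6% to 85.5%) and higher in p300 Tet2 Knockout cells at 58 of 75 (77.3%; 66.2% to 86.2%). Within 500 bp of a control peak, the shares were 39 of 53 (73.6%; 59.7% to 84.7%) and 28 of 58 (48.3%; 35.0% to 61.8%). On the Tet2-null background the intervals of near and far regions did not overlap. For H3K4me3 they did not overlap in the other pair: the percentile was higher in p300 Knockout than in WT cells at 59 of 74 far regions (79.7%; 68.8% to 88.2%) and at 28 of 61 near ones (45.9%; 33.1% to 59.2%). Between Tet2 Knockout and p300 Tet2 Knockout cells, the H3K4me3 shares were 53 of 78 far regions (67.9%; 56.4% to 78.1%) and 37 of 61 near ones (60.7%; 47.3% to 72.9%). These intervals overlapped, as did those of H3K4me1 between WT and p300 Knockout cells. Near and far regions thus separated in different pairs for H3K4me1 and H3K4me3. The intervals count regions of 1 library for each genotype and mark, so they are no test between genotypes. Regions called only in WT and Tet2 Knockout cells had the higher H3K4me1 percentile in the p300-deleted list in 37.2% (34.9% to 39.5%) and 40.2% (37.9% to 42.5%). For regions in 1 p300-deleted list alone, the share was 66.5% in the pair of that list and 51.9% in the other pair for p300 Knockout, and 67.1% and 54.2% for p300 Tet2 Knockout.

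**Figure D5:**
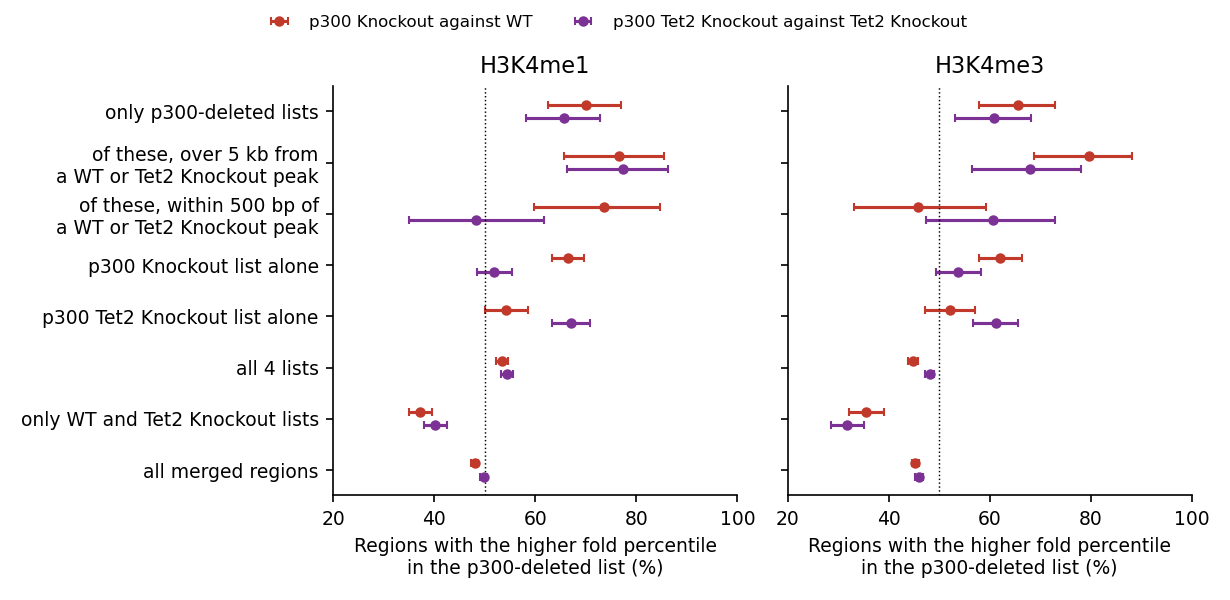
Share of regions (x axis, %) whose H3K4me1 (left) or H3K4me3 (right) peak had a higher fold percentile in the p300-deleted list of a pair than in its control list, among regions with a peak in both, by pattern of H3K27ac lists (rows). Points are shares and bars are exact 95% intervals, for p300 Knockout against WT (red) and p300 Tet2 Knockout against Tet2 Knockout (purple). For H3K4me1, regions called only in the p300-deleted lists are at 70.1% and 65.7%, against 48% and 49.8% for all merged regions.

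Peaks count regions and not cells, and in bulk chromatin fewer cells of a type and less of a mark per cell cannot be told apart. H3K27ac was called at promoters of 15 to 17 of 22 stem and progenitor genes in the 4 lists and at 2 to 4 of 18 stromal and endothelial genes. Promoters of granulocyte and monocyte genes were acetylated in 24 of 27 in WT, 19 in p300 Knockout, 14 in Tet2 Knockout, and 15 in p300 Tet2 Knockout cells, and those of the mast cell, basophil, and eosinophil group in 7, 3, 5, and 3 of 17. Promoters of the erythroid and megakaryocyte group numbered 15 to 16 of 22, of the B-lymphoid group 6 to 9 of 18, and of the T and NK group 6 to 9 of 20. Over all genes with any region, 11712 to 13097 had an acetylated promoter. The part of cell composition in the 258 regions was not tested.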

How the data were processed

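Chromatin of Lin- bone marrow cells was profiled by ChIP-Seq with Drosophila chromatin added as a spike-in. H3K27ac, H3K4me1, and H3K4me3 were taken for each of 4 genotypes, which gives 12 peak lists with 1 library each. The other 8 samples of the series, for H3 and H3K27me3, have no list and were not analysed here. Per the authors' methods and processing notes, reads were trimmed with cutadapt 1.15 and aligned to mm10 with BWA 0.7.13, and peaks were called with MACS2 2.1.1.20160309 against the H3 library of the genotype. Methods and labels differ on whether reads were paired. The methods state a q threshold of 0.05, but all 12 lists also hold peaks that do not reach it, with a q above 0.05. As far as the methods describe, the lists were not scaled by the spike-in.

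For each peak, the authors deposited its position and summit, a fold enrichment (a ratio to the H3 library), and the −log10 p and −log10 q of the peak caller. The deposited score column was not used. No column was left without a sample (0 unmapped).

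Lists were merged with an overlap of at least 1 bp. Places were taken from GENCODE release M21, with promoters as 3000 bp on either side of any start and then exons, introns, and the rest. Sequence was read from RefSeq GRCm38, the build of mm10, and 0 peaks passed a chromosome's end. A mark was counted at a region when its peak overlapped the region by at least 1 bp. Fold percentiles were taken within each list, with the strongest overlapping peak for a region. Python 3.11.15, numpy 2.4.6, scipy 1.17.1, pysam 0.24.0, matplotlib 3.10.9, and bedtools 2.31.1 were used. The steps were tested on simulated data, with 15 of 15 list patterns recovered over 3000 regions, and the 258 regions were checked against bedtools.

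The regions, gene lists, and alternatives were chosen with earlier results of these data known. Genes were named by rule: the 10 regions with the highest smaller fold, genes nearest to 3 or more regions, genes of the fixed lists nearest to a region, and Ep300, Tet2, Crebbp, Mx1, Myb, and the Hoxb genes. Meis1, overlapped but not nearest, and other genes outside this rule were named after their values were seen. The values of 1 gene that the rule names are not reported here. Alternatives covered the merging distance, the q threshold, list length (also of the ranked mark lists), overlap, promoter width, and leaving out each control list.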

Additional observations from a re-analysis of the deposited data

How the results depend on the processing

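The number of regions, 258, was 170 when peaks within 500 bp were merged, 144 with a −log10 q of at least 3 in all lists, 69 with at least 5, 114 with at least 3 in the p300-deleted lists only, and 466 with lists of equal length. It was 819 when the WT list and 645 when the Tet2 Knockout list was left out, so each control list removed many regions. The number of nearest genes moved with it, from 249 to 140 (q of 3), 67 (q of 5), 111 (q of 3 in the p300-deleted lists), 442 (equal length), 768 (no WT list), and 615 (no Tet2 Knockout list). The promoter share of 61.2% was 69.6% with a −log10 q of at least 5, 49.2% with promoters of 1000 bp, and 47.7% with coding starts only. The median width of 409 bp was 480 bp (500 bp merging), 441 bp (q of 5), 474 bp (equal length), and 446 bp (no WT list). The share with H3K4me1 in WT or Tet2 Knockout cells, 80.2%, was 72.5% (q of 5), 73.7% (q of 3 in the p300-deleted lists), 72.2% (no Tet2 Knockout list), and 71.3% (mark over the midpoint). The share with H3K4me3 in any genotype, 72.1%, was 78.5% (q of 3), 79.7% (q of 5), 78.1% (q of 3 in the p300-deleted lists), and 78.9% (no Tet2 Knockout list). The share with the higher H3K4me1 percentile after p300 deletion was 70.1% and 65.7%, against 48% and 49.8% of all merged regions. It fell to 56.9% for p300 Knockout against WT without the WT list. For p300 Tet2 Knockout against Tet2 Knockout, it was 73.6% (500 bp merging) and 57.1% (q of 5). The shares of all merged regions under these alternatives are not given here, so how far the lower values stand from them is open. Of 79 alternative values, 48 stayed within the interval or 1.5 times of the main value and these 31 did not; except where an alternative drops peaks or lists, the cause was not tested. The stated q threshold, with 220 regions, and all alternatives for the H3K4me1 percentile were chosen after seeing the data.

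No paired analysis was possible because each genotype and mark has 1 library, numbered 1. No result carries a spread between mice for the same reason. The depth of each library is unknown from the lists, and a missing call gives no amount of the mark.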
